A study of Mus musculus with 6 samples.

Results

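Alveolar type 1 (AT1) cells are the thin, flat cells that cover most of the gas-exchange surface of the lung. They can arise from alveolar type 2 (AT2) cells, the cuboidal cells that make surfactant, and in doing so they spread, flatten and switch on a set of genes for membrane, caveolar, cytoskeletal and matrix proteins. A set of 30 genes known as AT1 markers was followed here in RNA sequencing of purified AT2 cells labelled as control or as a conditional knockout (cKO) of Abca3, the transporter that loads phospholipid into lamellar bodies. The 30 were chosen as genes known to mark AT1 cells, and all 30 were found by symbol among the 23478 genes of the deposited count table and among the 14477 tested.

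Each group had 3 libraries (n = 3). Cells came from adult mice of mixed strain background, either Abca3 cKO or control, and all were given tamoxifen. The time label, 6 days, can be read as 6 days of tamoxifen or as harvest 6 days after it. Other cell types were depleted from the lung suspension, and no positive selection for AT2 cells is described. The labels name neither the Cre line that drives the deletion, nor its target exons, nor the genotype of the controls, and they do not say that replicates were separate mice. P-values therefore measure the spread between these libraries, and how much of it is technical is not known. The study is titled as one of injury and regeneration of the alveolus after loss of ABCA3, and the comparison made here asks whether AT1 markers differed between the groups.

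The libraries held 23531330 to 26071229 counts. Levels are given as CPM, the share of a library's counts scaled by TMM to a common depth, and log2 fold changes compare Abca3 cKO with control. Abca3 itself stood at 571, 611 and 606 CPM in Abca3 cKO replicates 1, 2 and 3 and at 635, 694 and 689 CPM in the controls. All 3 values of the knockout lay below those of the controls, but the difference was small and did not pass (88.7% of control, edgeR adjusted p = 0.696; exact two-sided permutation p = 0.1, the smallest that 3 against 3 allows). Counts sum over the whole gene and the deleted exons are not named, so this level does not check the genotype. Defining markers of AT2 cells were abundant, with Sftpc, surfactant protein C, at 20367, 20026 and 27128 CPM in the controls and Lamp3, a lamellar body protein, at 3485, 3608 and 3743 CPM. Control replicate 2 differed from the other libraries in sex-linked genes: it had 2345 CPM of Xist, against 5.36 to 9.36 CPM elsewhere, and 0 counts of Ddx3y, Eif2s3y and Kdm5d. This is the pattern of female cells, so control replicate 2 was not from the same mice as the others. The spread between the controls was thus not technical alone. Control replicate 2 also had the lowest control level of most AT1 markers, and results are given with and without it where that matters.

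Most AT1 markers were lower in Abca3 cKO, by a moderate amount, and none passed the test over all genes. Of the 30, 27 had a log2 fold change below 0, or 90.0% of the list against 49.7% of all genes tested. The median was −0.40 for the markers and 0.00 for all genes. With edgeR's quasi-likelihood test and Benjamini-Hochberg adjustment over all genes, 0 of 30 markers were called at an adjusted p under 0.05, where 0.38% of all genes were called, 0.117% as lower and 0.262% as higher. At an unadjusted p under 0.05, 16 markers were lower, which is 53.3% of the list against 4.16% of all genes, and 0 were higher, against 5.07%. DESeq2 on the same counts called 8 markers, all lower, against 0.622% of all genes called lower by it. The 8 were Akap5, Clic5, Ahnak, Sema3a, Sema3e, Cyp2b10, Tspan8 and Pxdc1. In 11 markers every Abca3 cKO library lay below every control, which is 36.7% of the list against 6.76% of all genes, and in 1 marker, Fstl3, every Abca3 cKO library lay above, against 7.34%. Without control replicate 2, edgeR called 2 markers lower, Sema3a and Tspan8, where 0.31% of all genes were called in either direction. Without Abca3 cKO replicate 2 it called 1, Pxdc1 (0.183% of all genes). In bulk RNA, fewer AT1 cells among the purified cells and less of these transcripts per cell cannot be told apart. Nor can AT1 transcripts carried by AT2 cells be told from those of AT1 cells that remained after depletion.

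**Figure D1:**
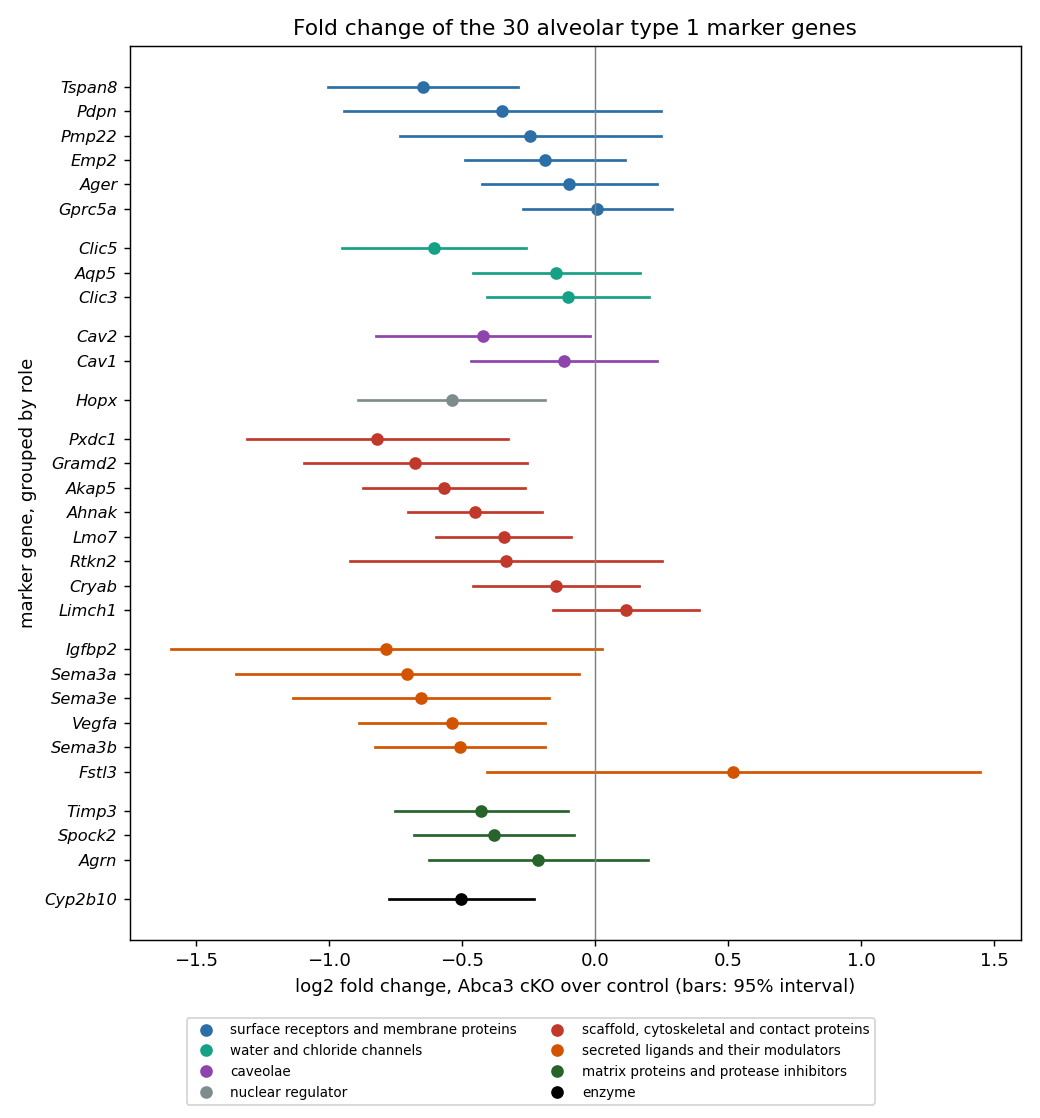
Log2 fold change of each of the 30 AT1 marker genes (points, Abca3 cKO over control, n = 3 per group) with its 95% interval from edgeR (bars), grouped by role in colours. Points lie to the left of 0 for 27 genes, and intervals exclude 0 for 16 of them before adjustment for the number of genes tested.

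Among surface proteins, Ager, the receptor for advanced glycation end products and the classical AT1 marker (chr17:34597862-34600936; spans are those of GENCODE M21 on GRCm38), was close to control with a wide interval. It stood at 415, 301 and 484 CPM in control replicates 1, 2 and 3 and at 364, 403 and 355 CPM in Abca3 cKO replicates 1, 2 and 3, an order kept for all values that follow. The Abca3 cKO values all fell inside the wide range of the controls, and the fitted level was 93.5% of control (95% interval 74.5% to 117%, edgeR adjusted p = 0.917). Without control replicate 3 its log2 fold change turned to 0.061. The sequence before its start is shown as that of a marker with little difference, in lower case because none of the motifs searched was found (250 bases before the RefSeq start, GRCm38.p6, plus strand, chr17:34597600-34597849).
Ager: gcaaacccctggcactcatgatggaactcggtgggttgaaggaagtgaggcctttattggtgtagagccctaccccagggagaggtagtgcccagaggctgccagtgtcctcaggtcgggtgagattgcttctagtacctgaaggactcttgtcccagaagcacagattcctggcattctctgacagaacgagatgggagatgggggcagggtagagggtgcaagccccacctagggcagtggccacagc

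Pdpn, podoplanin, a mucin-type glycoprotein that lymphatic endothelium and mesothelium also carry (chr4:143267431-143299564), was among the 3 markers that varied most inside a group. Control levels were 95.9, 67.9 and 107 CPM, and those of Abca3 cKO were 76.3, 90.4 and 46.2 CPM. The low value of Abca3 cKO replicate 3 gave a wide interval, from 52.0% to 119% of control. By contrast the groups did not overlap for Tspan8, a tetraspanin (chr10:115816832-115849893), which stood at 142, 90.5 and 143 CPM in the controls and at 72.9, 89.6 and 77.3 CPM in Abca3 cKO. Control replicate 2 was only just above the highest Abca3 cKO library. The log2 fold change of Tspan8 was −0.65 (SE 0.165, edgeR adjusted p = 0.149), and without control replicate 2 it was −0.83 with an adjusted p of 0.0109. Tspan8 shares exon bases with 4930422I22Rik on the opposite strand. Emp2 and Pmp22, membrane proteins of a single family, were at 87.7% and 84.5% of control, with groups that overlapped. Gprc5a, an orphan receptor induced by retinoic acid, was at 101% of control on counts, while on the authors' RPKM its log2 fold change was −0.16.

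Of the channel genes Clic5 stood lowest against control. Clic5, a chloride intracellular channel protein that ties the membrane to actin (chr17:44188584-44280172), stood at 984, 718 and 958 CPM in controls against 579, 702 and 469.7 CPM in Abca3 cKO. The groups did not overlap, although control replicate 2 again lay close to the highest knockout library. Its level in Abca3 cKO was 65.8% of control (95% interval 51.8% to 83.5%, edgeR adjusted p = 0.162; DESeq2 adjusted p = 0.0173). Aqp5, the apical water channel of AT1 cells (chr15:99590782-99594829), had 85.1, 80.3 and 118 CPM in controls and 84.8, 94.0 and 77.6 CPM in Abca3 cKO. Only control replicate 3 stood above the rest, and without it the log2 fold change turned from −0.15 to 0.045. Clic3, of the same family as Clic5, was at 93.2% of control, and it also turned, to 0.068, without control replicate 3. The sequence before the start of Clic5 is shown as that of a channel gene whose groups did not overlap, and holds none of the motifs searched (plus strand, chr17:44188322-44188571).
Clic5: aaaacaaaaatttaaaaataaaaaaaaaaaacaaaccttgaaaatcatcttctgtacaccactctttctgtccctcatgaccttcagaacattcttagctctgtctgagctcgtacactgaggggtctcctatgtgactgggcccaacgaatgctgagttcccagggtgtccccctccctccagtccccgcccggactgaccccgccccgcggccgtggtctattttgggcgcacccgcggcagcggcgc

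Caveolae are the flask-shaped pits that AT1 cells and capillary endothelium carry in abundance. Their coat protein gene Cav1 and its partner Cav2 lie 17219 bases apart on chromosome 6 in the same direction. Cav2 (chr6:17281185-17289115) had 74.7, 45.4 and 57.8 CPM in controls and 49.7, 48.0 and 35.2 CPM in Abca3 cKO, where control replicate 2 lay inside the range of the knockout. It was at 74.7% of control (SE of the log2 fold change 0.186, edgeR adjusted p = 0.508). Cav1 was at 92.2% (95% interval 72.4% to 117%), and its log2 fold change of −0.12 turned to 0.047 without Abca3 cKO replicate 3 and to 0.010 without control replicate 1. On the authors' RPKM the log2 fold changes of both genes were alike, −0.11 for Cav2 and −0.09 for Cav1. The sequences before the starts of both neighbours are shown because the genes share a locus but stood apart on counts, with overlapping intervals (plus strand, chr6:17280935-17281184 for Cav2 and chr6:17306085-17306334 for Cav1). Capitals mark an AP-1 motif and an NKX2-1 motif before Cav2.
Cav2: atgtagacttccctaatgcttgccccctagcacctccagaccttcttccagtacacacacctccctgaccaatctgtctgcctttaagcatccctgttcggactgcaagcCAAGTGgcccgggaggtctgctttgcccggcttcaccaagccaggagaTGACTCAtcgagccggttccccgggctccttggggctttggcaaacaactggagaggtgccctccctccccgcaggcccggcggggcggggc
Cav1: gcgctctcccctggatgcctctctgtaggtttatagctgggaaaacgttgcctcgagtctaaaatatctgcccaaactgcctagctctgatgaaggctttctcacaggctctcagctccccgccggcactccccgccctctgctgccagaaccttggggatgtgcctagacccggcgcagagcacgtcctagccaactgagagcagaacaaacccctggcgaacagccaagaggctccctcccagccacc

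Hopx, a small homeodomain protein that does not bind DNA itself (chr5:77086988-77115121), stood at 299.7, 214 and 324 CPM in controls and at 199.8, 218 and 159 CPM in Abca3 cKO. Control replicates 1 and 3 were above every knockout library, and control replicate 2 was below the highest. The fitted level was 68.9% of control (95% interval 54.0% to 87.9%, edgeR adjusted p = 0.258). Exons of Hopx overlap those of Hopxos on the opposite strand, and this amplification does not keep strand.

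Scaffold, cytoskeletal and contact proteins held 5 of the 11 markers whose groups did not overlap. Akap5, which anchors protein kinase A at the membrane (chr12:76324891-76334153), had the smallest p of the 30. It stood at 817, 685 and 813 CPM in controls and 480.1, 635 and 445 CPM in Abca3 cKO. All knockout libraries were lower, with Abca3 cKO replicate 2 the closest to the controls. The log2 fold change was −0.57 (SE 0.142, edgeR adjusted p = 0.127), and the gene passed with DESeq2 (adjusted p = 0.0127) and with edgeR when no count filter was set (adjusted p = 0.0298), a setting that called 2 markers lower against 0.222% of all genes. Ahnak, a giant scaffold protein under the plasma membrane (chr19:8989284-9076914), was the most abundant marker by reads, at 2833, 2759.5 and 2999 CPM in controls and 1989.6, 2303 and 1989 CPM in Abca3 cKO. Its groups were tight and separate, at 73.1% of control (95% interval 61.4% to 87.1%, edgeR adjusted p = 0.143; DESeq2 adjusted p = 0.00829). The sequences before Akap5 and Ahnak are shown as those of the scaffold genes with the smallest p (plus strand, chr12:76324641-76324890 for Akap5 and chr19:8989034-8989283 for Ahnak), and capitals mark a TEAD motif before Ahnak.
Akap5: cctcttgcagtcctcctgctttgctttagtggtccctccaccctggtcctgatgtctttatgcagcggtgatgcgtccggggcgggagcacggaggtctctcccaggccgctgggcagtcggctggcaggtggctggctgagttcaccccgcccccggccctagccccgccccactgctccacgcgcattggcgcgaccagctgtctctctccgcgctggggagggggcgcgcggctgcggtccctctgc
Ahnak: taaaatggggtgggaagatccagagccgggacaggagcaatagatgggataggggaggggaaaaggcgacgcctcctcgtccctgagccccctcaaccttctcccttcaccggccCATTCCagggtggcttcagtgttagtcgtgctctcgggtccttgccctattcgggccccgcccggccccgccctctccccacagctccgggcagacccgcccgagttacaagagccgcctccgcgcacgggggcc

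Lmo7, an actin-binding protein of cell junctions (chr14:101729957-101934710), had 588, 598 and 508 CPM in controls and 411, 487 and 437 CPM in Abca3 cKO. It was the only marker with control replicate 2 as the highest of all 6 libraries. Pxdc1, a protein with a lipid-binding PX domain (chr13:34627834-34653486), had 55.6, 52.8 and 78.0 CPM in controls and 28.4, 48.4 and 28.9 CPM in Abca3 cKO. Its log2 fold change, −0.82 (SE 0.223, edgeR adjusted p = 0.215), was the lowest of the list, and without Abca3 cKO replicate 2 it was −1.12 with an adjusted p of 0.0453. Gramd2, which sits where endoplasmic reticulum meets plasma membrane (chr9:59680144-59718874), had 19.6, 19.7 and 26.5 CPM in controls and 11.6, 16.6 and 13.0 CPM in Abca3 cKO, again without overlap. The other 3 of this group overlapped. Rtkn2 was at 79.4% of control, the small heat shock protein gene Cryab at 90.3%, and Limch1, an activator of non-muscle myosin, at 108%. Pxdc1, Rtkn2 and Cryab share exon bases with a gene on the opposite strand.

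Of 6 secreted signalling proteins 5 stood lower in Abca3 cKO (median log2 fold change −0.59). Vegfa, through which AT1 cells signal to capillary endothelium (chr17:46016993-46032369), stood at 539, 463 and 744 CPM in controls and at 373, 452 and 379 CPM in Abca3 cKO. The gap between the groups was narrow, since control replicate 2 nearly reached Abca3 cKO replicate 2, and the high mean of the controls rested partly on replicate 3. Its level was 68.9% of control (95% interval 54.1% to 87.8%, edgeR adjusted p = 0.254). Class 3 semaphorins are secreted guidance cues read by neuropilins and plexins, and 3 of them are on the list. Sema3b (chr9:107597674-107609229) had 76.6, 63.8 and 89.5 CPM in controls and 54.4, 61.3 and 46.1 CPM in Abca3 cKO, without overlap. Sema3a (chr5:13125414-13602565) had 262, 134 and 236 CPM in controls and 124, 161 and 103 CPM in Abca3 cKO, and Sema3e (chr5:14025276-14256689) had 225, 131 and 184 CPM and 117, 138 and 88.3 CPM. In both, control replicates 1 and 3 were above every knockout library and control replicate 2 lay among them. The log2 fold changes were −0.51 (SE 0.149) for Sema3b, −0.71 (SE 0.273) for Sema3a and −0.65 (SE 0.213) for Sema3e. Without control replicate 2, Sema3a passed edgeR's test (log2 fold change −0.95, adjusted p = 0.0324).

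Igfbp2, an insulin-like growth factor binding protein known from mature AT1 cells (chr1:72824503-72852474), had the widest range inside a group. Its controls stood at 34.9, 22.6 and 52.4 CPM, and its Abca3 cKO libraries at 30.3, 18.3 and 15.3 CPM. Abca3 cKO replicate 1 reached into the control range, and the 95% interval was 33.1% to 102% of control. Fstl3, which binds and blocks activin (chr10:79777272-79782630), was the least abundant marker, at 1.82, 1.20 and 2.14 CPM in controls and 2.45, 2.65 and 2.30 CPM in Abca3 cKO. These values rest on 31 to 68 counts per library. Although no values overlapped, the interval was wide (75.5% to 273% of control, edgeR adjusted p = 0.802), and the gene shares exon bases with Prss57 on the opposite strand.

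Of the matrix genes, Timp3, a metalloproteinase inhibitor held in the matrix that mesenchymal cells also make (chr10:86300372-86349506), had 2209, 1769 and 2793 CPM in controls and 1758, 1724 and 1550.4 CPM in Abca3 cKO. Control replicate 2 and Abca3 cKO replicate 1 were almost level, so the groups only just failed to overlap, and the gene shares exon bases with Syn3. Spock2, the proteoglycan testican-2 (chr10:60106219-60135198), had 613, 461 and 589.96 CPM in controls and 455, 469 and 356 CPM in Abca3 cKO, where control replicate 2 lay inside the range of the knockout. Timp3 was at 74.3% and Spock2 at 76.9% of control (edgeR adjusted p = 0.350 and 0.383). Agrn, agrin of the basement membrane, was at 86.3% (95% interval 64.8% to 115%). The enzyme of the list, Cyp2b10, a cytochrome P450 of foreign compound metabolism (chr7:25897620-25926624), had 402, 408 and 484 CPM in controls and 280.3, 351 and 282 CPM in Abca3 cKO. All 3 knockout libraries were lower than all controls, with a log2 fold change of −0.50 (SE 0.127, edgeR adjusted p = 0.132; DESeq2 adjusted p = 0.0185). Mouse has closely related Cyp2b genes, and how the authors' counting treated reads that such copies share is not given in the sources used here.

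**Figure D2:**
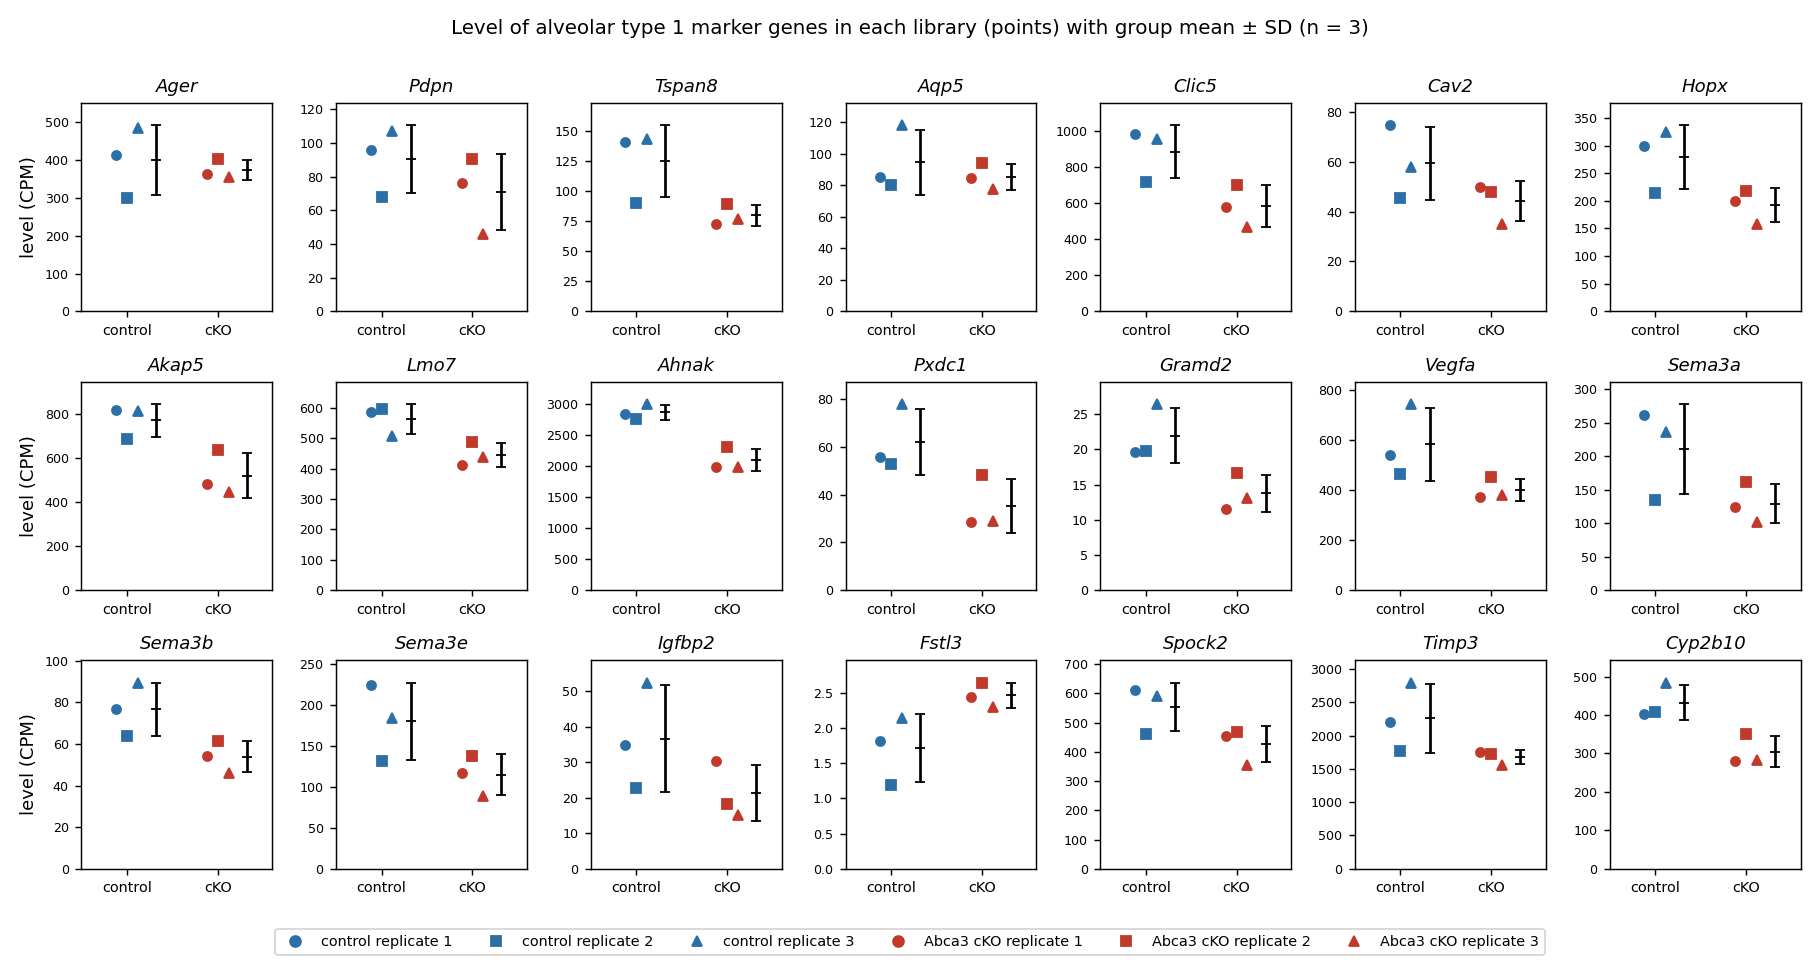
Level in CPM (y axis, from 0) of 21 AT1 marker genes in each library, controls in blue and Abca3 cKO in red, with marker shape for the replicate and the group mean ± SD (n = 3) in black. Control replicate 2 (blue square) is the lowest control in most panels. It is often close to the highest Abca3 cKO library, as for Clic5 and Tspan8, or below it, as for Sema3a.

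RefSeq promoter windows could be matched by symbol for 26 of the 30 markers, 40 windows in all, and the 250 bases before each start were searched. The TEAD motif (GGAATG, either strand) was in 3 of the 40, or 7.5%, against 12.6% of all 32851 windows. The NKX2-1 motif (CAAGTG, either strand) was in 3 as well, against 11.6%, and the AP-1 motif (TGANTCA, either strand) in 2, or 5.0%, against 6.75%. TATAAA on the strand of the gene was in 1, that of Pxdc1, against 7.59% of all windows. None of these motifs contains another, and a match describes the sequence only.

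Levels of different genes were set side by side on the authors' RPKM, which are per kilobase of transcript. In the controls Pmp22 (232 ± 61.8 RPKM, mean ± SD, n = 3, as for the values that follow) and Ager (230.5 ± 54.3 RPKM) were the most abundant AT1 markers and did not differ beyond their spread. Timp3 (166 ± 34.5) and Cyp2b10 (102 ± 9.55) followed, then Gprc5a (94.4 ± 14.8), Emp2 (89.6 ± 12.2) and Clic3 (88.1 ± 22.6), whose values overlapped. Cav2 (6.13 ± 1.71), Gramd2 (5.87 ± 1.33) and Fstl3 (0.620 ± 0.191) were at the bottom. On the same scale AT2 genes ranged widely, with Abca3 at 71.5 ± 4.79 and Napsa at 143 ± 14.8 RPKM, Lamp3 at 373 ± 10.7 and Sftpc at 21503 ± 3937 RPKM. With limma on log2(RPKM + 1), 28 of 30 markers had a log2 fold change below 0, against 48.7% of the 11834 genes tested. At an unadjusted p under 0.05, 12 were lower, against 3.74%, and 0 were called after adjustment, against 0.22%. On that scale, which understates low genes, the log2 fold change was −0.49 for Akap5, −0.53 for Clic5 and −0.84 for Pxdc1. For Hopx it was smaller than on counts, −0.28, and likewise for Vegfa, −0.22. Neither gene is low (47.9 and 37.6 RPKM in controls), and with a pseudocount of 0.1 the values were −0.29 and −0.22. For Cav2 the log2 fold change was −0.11 on RPKM, and −0.13 with a pseudocount of 0.1, against −0.42 on counts. The authors' RPKM and counts thus differed for these genes, and the reason was not tested.

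The markers moved together from library to library inside each group, as the map of deviations shows. Abca3 cKO replicate 3 held the lowest knockout value of 24 of the 30 markers and Abca3 cKO replicate 2 the highest of 25, where the corresponding shares over all genes were 34.1% and 32.2%. Among controls, replicate 2 held the lowest value of 27 markers (33.8% of all genes), and replicates 1 and 3 the highest of 12 and 17. In 24 markers Abca3 cKO replicate 3 and control replicate 2 were both the lowest of their group, as in 13.3% of all genes. The median deviation of the markers from their means over the 6 libraries, in log2 CPM, was 0.28, −0.14 and 0.36 in control replicates 1, 2 and 3 and −0.13, 0.01 and −0.39 in Abca3 cKO replicates 1, 2 and 3. Control replicate 2 thus stood at the level of Abca3 cKO replicate 1 and below Abca3 cKO replicate 2. In 23 markers control replicates 1 and 3 were both above all knockout libraries, against 11.7% of all genes, and in 19 of 30 control replicate 2 was below the highest knockout library, a pattern that 73.8% of all genes also had. The genes of one library share its cells, RNA and amplification, so these counts over genes are not counts of independent events.

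**Figure D3:**
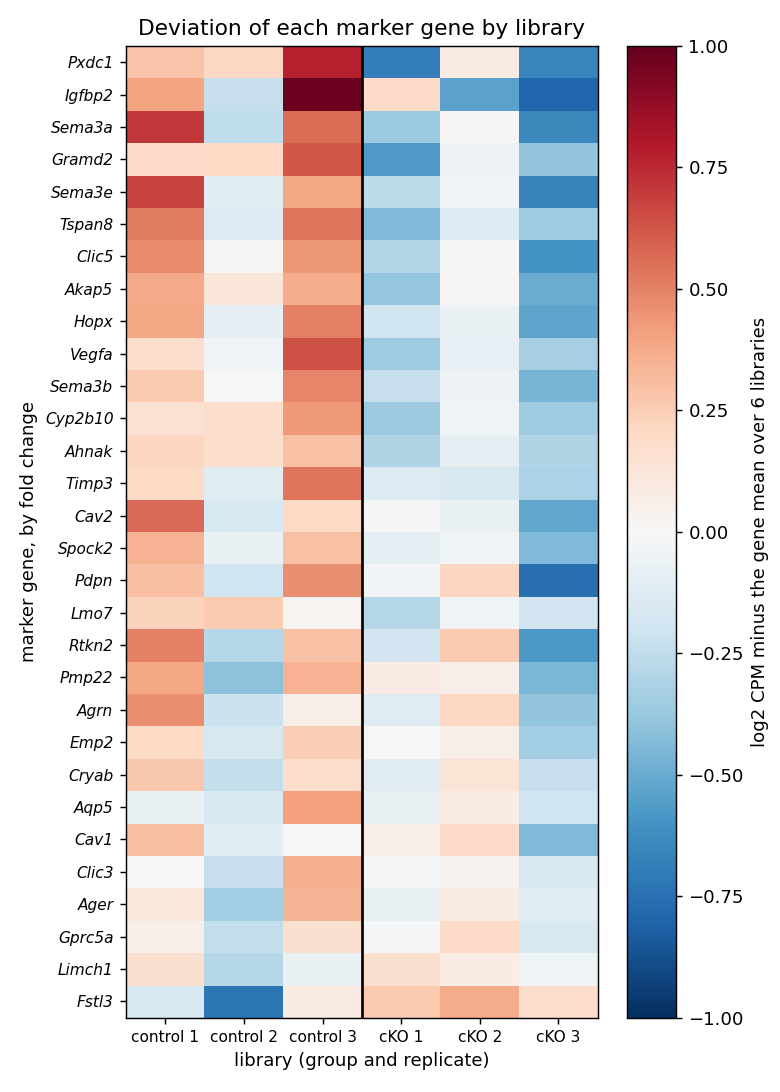
Deviation of log2 CPM from the mean of the gene over the 6 libraries (colour, red above and blue below) for the 30 AT1 marker genes (rows, by fold change) in each library (columns, controls left of the line). Control replicates 1 and 3 are red for nearly all genes, Abca3 cKO replicate 3 is blue for nearly all, and control replicate 2 and Abca3 cKO replicate 2 are pale or mixed.

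Summed over the 30 genes, AT1 markers took 14209, 11442 and 15039 CPM in the controls and 10443, 11540.5 and 9192 CPM in Abca3 cKO, where control replicate 2 was just below Abca3 cKO replicate 2. Ratios between markers were also taken inside each library. The 3 given here were chosen after the values of the genes had been seen, so they are described without a test. Clic5 over Clic3 was 11.5, 9.82 and 8.76 in controls and 6.80, 7.99 and 6.10 in Abca3 cKO. Akap5 over Ager was 1.97, 2.28 and 1.68 in controls and 1.32, 1.58 and 1.26 in Abca3 cKO. In both ratios every knockout library was lower than every control, control replicate 2 included. Cav2 over Cav1 was 0.161, 0.129 and 0.154 in controls and 0.127, 0.112 and 0.127 in Abca3 cKO, with a much narrower gap.

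**Figure D4:**
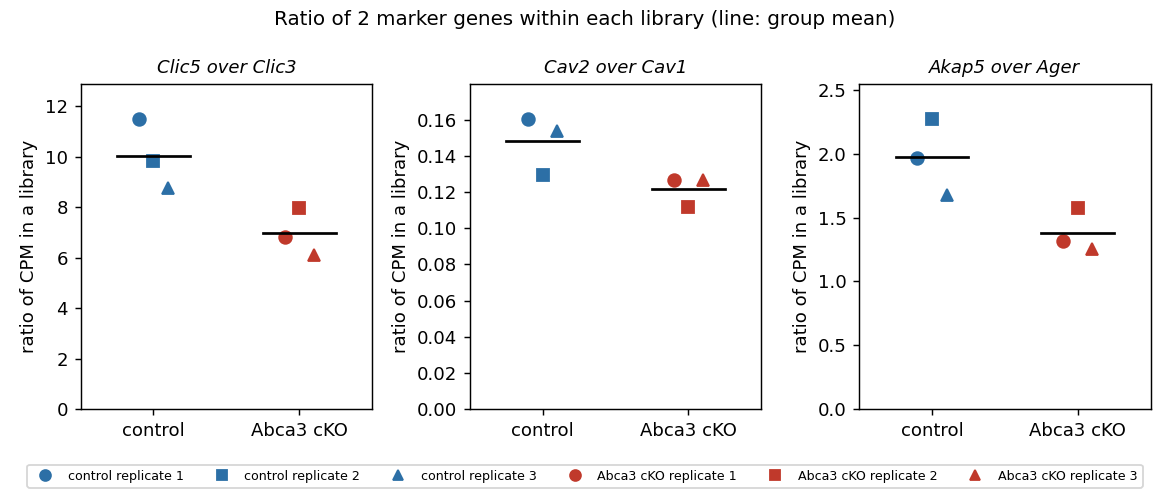
Ratio of CPM of 2 AT1 marker genes within each library (points, shape for the replicate) with the group mean (line), controls in blue and Abca3 cKO in red, from 0. In each panel the 3 Abca3 cKO libraries lie below the 3 controls, from 6.10 to 7.99 against 8.76 to 11.5 for Clic5 over Clic3.

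Other genes enriched in AT1 cells, none of them among the 30, leaned the same way. Of 15, 14 had a log2 fold change below 0 (median −0.30). With edgeR 0 were called, while 7 were lower and 1 higher at an unadjusted p under 0.05, and DESeq2 called 1. This was Scnn1g, a subunit of the epithelial sodium channel, at 466, 293 and 483 CPM in controls and 272, 319 and 220.2 CPM in Abca3 cKO, with control replicate 2 again among the knockout values. Its log2 fold change was −0.61 (edgeR adjusted p = 0.308; DESeq2 adjusted p = 0.0440), and without control replicate 2 it was −0.81 with an edgeR adjusted p of 0.0324. Groups did not overlap for 5 of the 15 as lower, against 6.76% of all genes. Among them were the calcium-binding protein gene S100a6 (75.7% of control) and the keratin gene Krt7 (73.6%). For 1 gene, Ptrf (118% of control), they did not overlap as higher, against 7.34% of all genes.

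Of genes shared by both alveolar cell types, 9 of 10 had a log2 fold change below 0 (median −0.24). With edgeR 0 were called and 4 were lower at an unadjusted p under 0.05, while DESeq2 called 2 lower. These were the tight junction gene Ocln, at 69.6% of control (edgeR adjusted p = 0.119; DESeq2 adjusted p = 0.0175), and the keratin gene Krt8, at 71.9% (edgeR 0.127, DESeq2 0.0271). The Hippo kinases restrain YAP and TAZ, which act through TEAD proteins and are known to promote the AT1 fate. Of 17 genes of this pathway 9 were below 0 and 8 above (median −0.04). The 17 include kinases that restrain YAP and TAZ and genes that act with them. The split of signs therefore does not measure the pathway's activity. Both edgeR and DESeq2 called 0 of them, and at an unadjusted p under 0.05 edgeR had 2 lower and 3 higher. The members of smallest p went both ways (edgeR adjusted p from 0.359 to 0.424). Tead1 stood at 75.8% of control with groups that overlapped. Tead3 stood at 144% and Vgll4 at 136% without overlap, and Amotl1 had a log2 fold change of 0.29, also without overlap. Ctgf, the other gene lower at an unadjusted p under 0.05, stood at 70.8% of control with groups that overlapped (edgeR adjusted p = 0.507).

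Of 10 transcription factors of alveolar cells 5 were below 0 and 5 above. With edgeR 0 were called and 3 were higher at an unadjusted p under 0.05, and DESeq2 called Id2 higher, at 53.9, 77.7 and 43.7 CPM in Abca3 cKO against 38.0, 26.7 and 26.7 CPM in controls (edgeR adjusted p = 0.119; DESeq2 adjusted p = 0.00201). Without Abca3 cKO replicate 3 the edgeR adjusted p of Id2 was 0.0498. Among 15 genes of the transitional state between AT2 and AT1 cells 12 were below 0 (median −0.44). Krt8, Krt18 and Itgb6 are also on the list of genes shared by both alveolar cell types, and Krt7 on that of other AT1-enriched genes. Of the 15, 2 fell with edgeR and 4 with DESeq2, the 4 being Krt8, Sfn, Lgals3 and Areg. The growth factor gene Areg fell to 20.5% of control (edgeR adjusted p = 7.36e-05) and passed whichever library was left out. The galectin gene Lgals3 stood at 15.1, 13.7 and 18.1 CPM in Abca3 cKO against 26.3, 40.3 and 27.4 CPM in controls (edgeR adjusted p = 0.0417), and its adjusted p was 0.0631 to 0.1996 when each library was left out.

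Markers of other cell types were read beside the AT1 genes, and their part in the result was not tested. Most AT2 markers leaned the other way: 10 of 12 had a log2 fold change above 0 (median 0.29). Of these, Etv5 and Cebpa are also on the list of transcription factors. The 2 below 0 were Abca3 and Sftpc. Sftpc stood at 15395, 16782 and 20431 CPM in Abca3 cKO, 77.9% of control (log2 fold change −0.36, edgeR adjusted p = 0.479). Napsa, a surfactant protease, rose with edgeR (adjusted p = 0.0265), a call kept without control replicate 2 (0.0318) and lost without any other library (0.0644 to 0.154). DESeq2 called 3 higher, Napsa, Lamp3 and the phosphate transporter gene Slc34a2. The summed level of the 12 AT2 markers was 78737, 84277 and 93299 CPM in controls and 92603, 92839.7 and 104449 CPM in Abca3 cKO. Among the controls, replicate 3 thus had the highest sum of AT1 and of AT2 markers. Single AT2 markers did not all follow. Slc34a2, Sftpa1, Sftpd, Napsa and Abca3 were higher in control replicate 2 than in control replicate 3, while the rest of the list was highest among controls in replicate 3. Fibroblast and smooth muscle markers were above 0 in 10 of 11 (median 0.41). With edgeR 0 were called and 7 were higher at an unadjusted p under 0.05, and DESeq2 called 1 higher, Tcf21, a transcription factor of lung fibroblasts (174% of control, edgeR adjusted p = 0.155; DESeq2 adjusted p = 0.0422). The list summed to 1376, 1064 and 1362 CPM in controls and 2148, 1448 and 1504 CPM in Abca3 cKO, so no Abca3 cKO library was below a control. Mesothelial markers were above 0 in 5 of 6 tested and summed to 605, 492 and 431 CPM in controls and 951, 558 and 492 CPM in Abca3 cKO, led by Abca3 cKO replicate 1. Endothelium, which shares Cav1, Cav2 and Timp3 with AT1 cells, was near absent by its defining markers. Pecam1 stood at 0.156 to 1.39 CPM and Cdh5 at 0 to 1.86 CPM, and Emcn had 0 counts, while Kdr, at 39.0 to 91.0 CPM, made up most of the summed 47.6 to 103 CPM. Club cell markers summed to 75688, 83245 and 65132 CPM in controls and 84667, 66460.1 and 53565 CPM in Abca3 cKO, and 4 of 6 were below 0. Macrophage and leukocyte markers were low and summed to 79.8, 66.5 and 69.4 CPM in controls and 48.8, 63.3 and 44.3 CPM in Abca3 cKO. No Abca3 cKO library reached a control. Ptprc, at 0.121 to 1.58 CPM, held little of these sums. All 5 tested were below 0 (median −0.90), and 0 were called by edgeR or DESeq2.

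**Figure D5:**
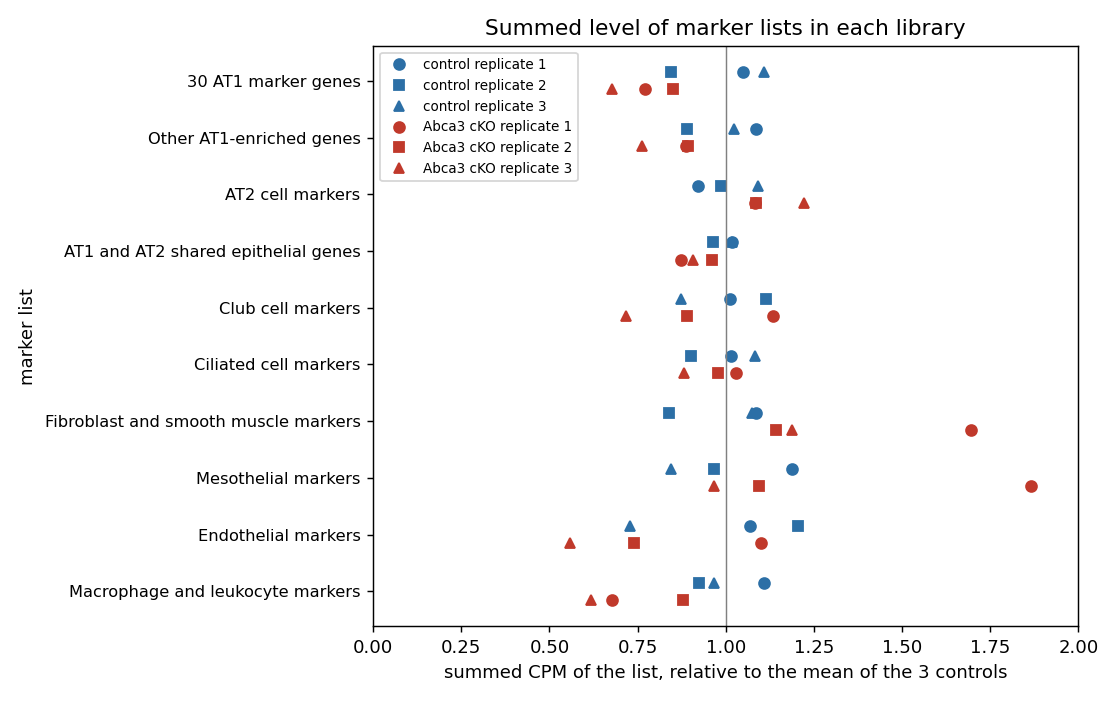
Summed CPM of each marker list in each library, relative to the mean of the 3 controls (x axis), with controls in blue, Abca3 cKO in red and shape for the replicate. The 30 AT1 marker genes lie at 0.68 to 0.85 in Abca3 cKO and at 0.84 to 1.11 in controls, and the fibroblast and smooth muscle list at 1.14 to 1.70 in Abca3 cKO.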

How the data were processed

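Per the labels' protocols, AT2 cell RNA was amplified with a NuGEN Ovation kit, and Nextera XT libraries were prepared from it. Neither step marks strand. The authors deposited raw counts per gene and a table of RPKM (reads scaled for transcript length and depth). The submitters' processing notes name the builds mm10 and GRCm38 and the tools DESeq, Cufflinks 2.0.2, Bowtie2 2.1.0 and TopHat2 2.0.8. Not given in the sources used here are the step each served, the counter and the annotation.

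Counts were tested in R 4.3.3 with edgeR 4.0.16 (filterByExpr, which kept 14477 of 23478 genes, TMM scaling, robust quasi-likelihood test, Benjamini-Hochberg adjustment at 0.05 over all genes tested). The SE is the size of the log2 fold change divided by the square root of F. RPKM were tested with limma 3.58.1 on log2(RPKM + 1) for genes with a mean RPKM of at least 0.5. DESeq2 1.42.0, other filters and scalings, a replicate block and leaving out each library were the alternatives. The test was checked on simulated counts, with 50 genes changed at each size. It called 40% of those changed 1.5-fold, 72% at 2-fold and 96% at 3-fold, with 14 false calls. Changes of 1.5-fold were thus missed more often than called. Positions come from GENCODE M21, promoter sequences from RefSeq (GRCm38.p6). Depth was 23531330 to 26071229 counts per library; reads of an amplified library are not independent molecules.

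The members and lists were chosen with earlier results of these data known. Every member is named; values in each library are given for members whose groups do not overlap or with an unadjusted p under 0.05, for Ager, Hopx, Pdpn and Aqp5, and for the 3 widest ranges inside a group. From other lists at most 4 genes with the smallest p and any called are named. Some genes are on several of these lists, so the counts of different lists are not independent. Defining markers of endothelium and leukocytes, Sftpc, Sftpa1, Sftpd, Lamp3, Ctgf, Ptrf and the sex-linked genes were named beside that rule. A further deposited sheet lists 29 symbols without values and was not used.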

Additional observations from a re-analysis of the deposited data

How the results depend on the processing

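Of all genes tested, 55 were called, against 132 with no count filter, 241 with DESeq2, 33 with a replicate block, 26 on RPKM with a pseudocount of 1, 27 with a pseudocount of 0.1, 2 on RPKM with no filter, and 21 to 50 when each library was left out. The count of AT1 markers called, 0, was 2 with no count filter, 8 with DESeq2 and 0 to 2 when each library was left out. The count of markers lower at an unadjusted p under 0.05, 16, was 10 on RPKM with no filter (3.17% of all genes). When each library was left out it was 12 to 20, where 3.23% to 4.2% of all genes were lower at that p. Over all alternatives 24 to 28 of 30 markers had a log2 fold change below 0, and the median ran from −0.52 to −0.29. The median of all genes ran from −0.0051 to 0.0079.

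Signs turned for 5 markers close to 0, and the cause was not tested. When each library was left out, the log2 fold change ran from −0.27 to 0.061 for Ager, from −0.25 to 0.045 for Aqp5 and from −0.23 to 0.068 for Clic3, in each case above 0 only without control replicate 3. For Cav1 it ran from −0.25 to 0.047, above 0 without Abca3 cKO replicate 3 or control replicate 1. For Gprc5a it ran from −0.10 to 0.092, and on RPKM it was −0.16 under all 3 settings.

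Libraries of the same replicate number did not deviate together (r = 0.0763, −0.0304 and −0.0272 across genes). Knockout and control libraries of unlike number had r from −0.0816 to 0.105. The check showed no pairing by number but cannot exclude one. With the replicate block, 30 of the 33 genes called were among the 55 and 0 were markers. With 3 libraries a group, Fstl3, at 31 to 68 counts, is limited by depth.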

Other observations

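Ciliated cell markers, which summed to 447 to 549 CPM per library, were below 0 in 5 of 6 (median log2 fold change −0.12), with 0 called by edgeR's quasi-likelihood test or by DESeq2 and 2 lower at an unadjusted p under 0.05 with edgeR. Lists of 3 further cell types held few reads. Of 5 basal cell markers 3 could be tested and all 3 were above 0 (median 1.504), on a summed level of 0.734 to 11.02 CPM per library. Lymphatic endothelial markers, a cell type that also carries Pdpn, summed to 4.55 to 10.3 CPM, and red blood cell markers to 0.380 to 0.969 CPM.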
